A study of Homo sapiens with 6 samples.

Results

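The genes described here encode the heterogeneous nuclear ribonucleoproteins (hnRNPs) and the serine/arginine-rich (SR) splicing factors, and they were chosen by symbol alone: every gene whose symbol begins with HNRNP, every numbered SRSF gene, and TRA2A, TRA2B, SRRM1 and SRRM2. The rule found 38 genes among the 10779 that carry a value in either deposited table, made up of 22 hnRNP genes, 12 SRSF genes and the 4 TRA2 and SRRM genes. Of these, 36 had a translational efficiency and 31 had a codon-by-codon profile of ribosome occupancy, and 29 had both. HNRNPA1, HNRNPA3, HNRNPK, HNRNPUL1, HNRNPUL2-BSCL2, SRSF5 and SRSF11 were present with a translational efficiency alone, and HNRNPH1 and HNRNPR with a profile alone.

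hnRNPs are abundant nuclear proteins that coat newly made transcripts through RNA recognition motifs, KH domains or glycine-rich stretches, and many of them act as silencers of splice sites. SR proteins carry RNA recognition motifs followed by a domain of alternating arginine and serine (the RS domain), bind exonic enhancers and recruit the spliceosome. Both families are known for controlling their own expression by splicing in exons that bring premature stop codons, which sends the transcript to nonsense-mediated decay.

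The data come from ribosome profiling, in which the stretches of mRNA protected by ribosomes (RPFs) are sequenced to show how many ribosomes sit on each mRNA and where. The cells were HEK293, a line derived from human embryonic kidney, and the labels give a Control siRNA for each of the 6 libraries, 3 of RPFs (RPF_Control) and 3 of rRNA-depleted total RNA (TotalRNA_Control), numbered 1 to 3. Every library belongs to this single condition, and per the methods the living cells were exposed to cycloheximide, which arrests elongating ribosomes, at 100 µg/ml before lysis and kept in it through washing and lysis. Each gene is therefore compared with the other genes and not with a treatment. The methods describe 3 repeats of the procedure for a condition, and as neither they nor the labels say how far apart the cultures were kept, the p-values measure the spread between these samples, which may be technical. As both tables hold ratios, the identity of the cells was not checked against marker genes.

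Translational efficiency is the authors' ratio of RPFs to total RNA in each replicate, and occupancy is their RPF count at a codon, normalized for library size and divided by the abundance of the mRNA in TPM, with the replicates combined. Occupancy therefore has no replicate error. An estimated 1687 (SRSF12) to 289907 (HNRNPA1L2) in-frame reads lay behind the CDS profile of a member, and 57.95% to 98.5% of the codons carried at least a read. Over all 8121 genes the median translational efficiency was 0.382, 0.380 and 0.388 in replicates 1, 2 and 3.

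Some of the mRNAs resemble other transcripts so closely that their reads cannot be told apart, and this touches several of the highest values. For HNRNPA1L2, every 30-base stretch of the CDS occurs in a transcript of another gene, and for HNRNPUL2-BSCL2, SRSF1, HNRNPUL2, HNRNPA1, HNRNPA3, SRSF6, HNRNPC, HNRNPL and HNRNPK the share ran from 98.7% down to 66.5%. Values of these 10 genes are uncertain for that reason. In 18 of the 36 genes with a translational efficiency the share was under 5%.

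Short stretches of sequence that carry the positional findings are given here, in hg19 (GRCh37) coordinates from GENCODE 44, and are referred to again beside the values. Each is 27 bases of the mRNA, with the codon in question in capitals. The first set shows the AUG at which the annotated CDS of HNRNPDL begins and a second AUG at its codon 120, both in exon 1 on the minus strand of chromosome 4 (chr4:83350829-83350855 and chr4:83350472-83350498), followed by the AUG at which the listed CDS of HNRNPR would begin when placed by its length at the end of a longer coding transcript, in exon 4 on the minus strand (chr1:23664313-23664339).
HNRNPDL codon 1: gggagggccgcgATGgaggtcccgccc
HNRNPDL codon 120: agctccgtcactATGgaggatatgaac
HNRNPR listed codon 1: ttatgtggagttATGaagacctacagg

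A second set shows codons of related mRNAs that lie at the same place of the protein alignment and hold a peak in each. They are codon 303 of HNRNPH1 (chr5:179044800-179044826, minus strand, exon 8), HNRNPH2 (chrX:100667871-100667897, plus strand, exon 2) and HNRNPF (chr10:43882412-43882438, minus strand, exon 4), codons 32 of SRSF1 (chr17:56084391-56084417, minus strand, exon 1) and 30 of SRSF9 (chr12:120907311-120907337, minus strand, exon 1), and codons 232 of HNRNPD (chr4:83278511-83278537, minus strand, exon 5) and 204 of HNRNPAB (chr5:177634155-177634181, plus strand, exon 5).
HNRNPH1 codon 303: agagctactgagAATgacatttataat
HNRNPH2 codon 303: agagccactgagAATgatatttataat
HNRNPF codon 303: aaagcgaccgagAACgacatttacaac
SRSF1 codon 32: cgaaccaaggacATTgaggacgtgttc
SRSF9 codon 30: cgcgagaaggacTTGgaggacctgttc
HNRNPD codon 232: attacctttaagGAAgaagaaccagtg
HNRNPAB codon 204: atcacctttaaaGAAgaagaacccgtg

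The hnRNP and SR mRNAs lay mostly above the median of all genes in translational efficiency. Of the 36 members measured, 31 were above the median of all values, 3 below (SRSF2, HNRNPLL and HNRNPUL1), and 2 did not pass the test (HNRNPAB and HNRNPF). Among all genes the share called was 44.7% above and 44.6% below (limma, Benjamini-Hochberg adjustment at an FDR of 0.05). With the stricter rule, a difference of more than 1 log2 unit (limma treat), 25 members were above and 0 below, beside 23.3% and 18.2% of all genes. At an unadjusted treat p under 0.05 the number below was also 0. The median over members was 1.33, beside 0.385 for all genes, and 14 members lay above the 90th percentile of all genes. By class the median was 1.56 for the 20 hnRNP genes, 1.07 for the 12 SRSF genes and 1.82 for TRA2 and SRRM. The hnRNP genes spanned from 0.210 to 133, and the SRSF genes from 0.244 to 3.13. The sources used here do not state how the ratio was computed, so differences between genes may hold differences in the length over which RPFs and total RNA were counted.

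**Figure D1:**
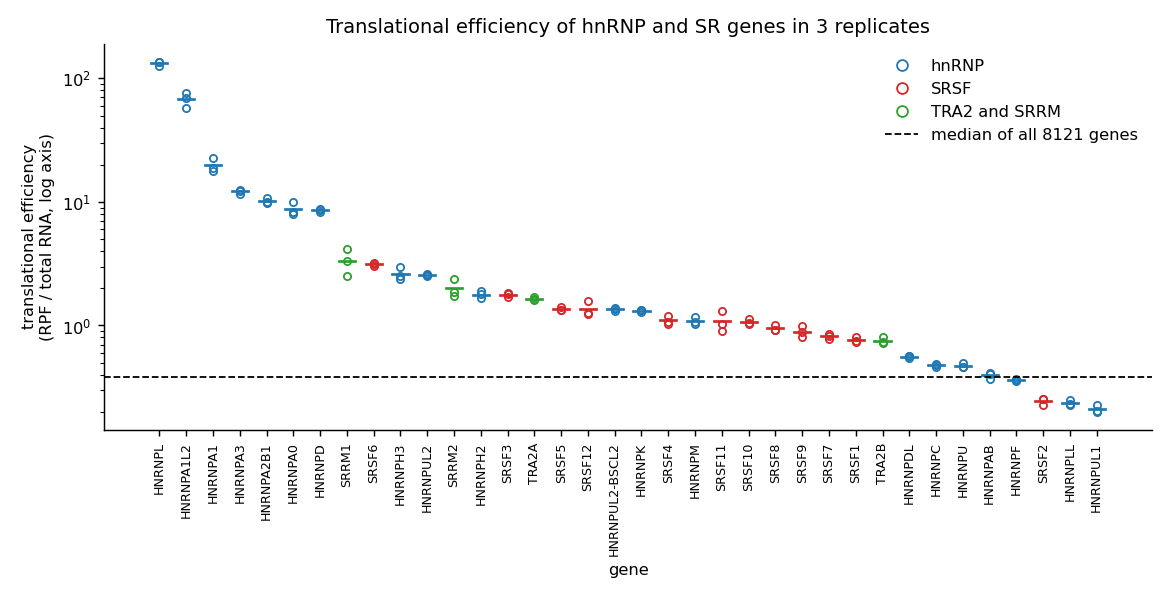
Translational efficiency (vertical log axis) of the 36 members, ordered by their mean. Circles are the 3 replicates, bars their means, colours the 3 classes, and the dashed line is the median of all 8121 genes, 0.385. The 7 highest genes are all hnRNPs, and 4 members lie below the line, HNRNPF only just.

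The hnRNP A genes, which encode the core proteins of hnRNP particles and antagonists of SR proteins at splice sites, were all within the top 2% of genes. HNRNPA1 had a translational efficiency of 18.9, 17.9 and 22.8 in replicates 1, 2 and 3. HNRNPA3 stood at 12.5, 11.6 and 12.3, and HNRNPA2B1 at 9.87, 9.90 and 10.8. HNRNPA0, an intronless member of the group, had 7.91, 9.99 and 8.36, so that its range overlapped that of HNRNPA2B1 while HNRNPA1 and HNRNPA3 stood apart from each other and from both. The intronless copy HNRNPA1L2 had 57.97, 69.3 and 76.2, which rests wholly on sequence shared with other genes, 83 of which have at least 1 of its 30-base stretches. HNRNPA2B1 and HNRNPA0 have no 30-base stretch in common with another gene, and their differences from the median of all values were 4.70 ± 0.05 (SE) and 4.47 ± 0.08 on the log2 scale (limma adjusted p 9.21e-07 and 1.46e-06).

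The D group encodes AU-rich element binding proteins with closely related RNA recognition motifs, and its members were far apart. HNRNPD (AUF1) reached 8.30, 8.52 and 8.78, in the range of HNRNPA0. HNRNPDL had 0.567, 0.541 and 0.571, and HNRNPAB had 0.366, 0.408 and 0.410. The values of HNRNPAB fell on both sides of the median of all genes. Within a replicate HNRNPD was 21.6 ± 0.916-fold (SD, n = 3) above HNRNPAB. HNRNPAB differed from the median of all values by 0.04 ± 0.06 (SE) on the log2 scale, which did not pass the test (limma adjusted p 0.533).

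Among the H and F proteins, which bind runs of G through quasi-RNA recognition motifs, the order was H3, H2 and F, with no overlap between replicates of neighbours within the group. HNRNPH3 had 2.49, 2.37 and 2.97, and HNRNPH2 had 1.66, 1.79 and 1.89. HNRNPF had 0.370, 0.355 and 0.361 and did not pass the test (−0.08 ± 0.05 (SE) on the log2 scale, limma adjusted p 0.172). HNRNPH3 was 7.21 ± 0.874-fold (SD, n = 3) above HNRNPF within a replicate.

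HNRNPL, a protein of CA-rich splicing silencers, had the highest value of all members, 136, 125 and 137, and its paralogue HNRNPLL among the lowest, 0.227, 0.230 and 0.249. Within a replicate they differed 565 ± 28.5-fold (SD, n = 3). This value of HNRNPL did not carry over to the occupancy table, as described below, and 70.7% of its 30-base stretches are found in other genes as well, 43.5% in the pseudogene HNRNPLP2. HNRNPLL shares none with another gene, and its difference from the median was −0.68 ± 0.05 (SE, limma adjusted p 0.000124).

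The U group, named for the scaffold attachment factor HNRNPU, ranged from above to below the median. HNRNPU itself had 0.463, 0.458 and 0.494, close to HNRNPC with 0.460, 0.478 and 0.491, a protein that coats uridine tracts of introns. The ranges of HNRNPU and HNRNPC overlapped. HNRNPUL2 had 2.56, 2.52 and 2.62 and the readthrough gene HNRNPUL2-BSCL2, which holds nearly the same CDS, had 1.35, 1.31 and 1.39. HNRNPUL1 had the lowest values of all members, 0.199, 0.226 and 0.204, with a difference of −0.84 ± 0.06 (SE, limma adjusted p 7.59e-05). HNRNPK, a KH-domain protein of C-rich sequence, stood at 1.28, 1.32 and 1.32, and HNRNPM, which binds GU-rich sequence, at 1.02, 1.07 and 1.18.

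The SRSF genes formed a narrower range, all but SRSF2 above the median. SRSF6 was the highest with 3.13, 3.21 and 3.05, and its relatives were lower, SRSF5 with 1.34, 1.42 and 1.33 and SRSF4 with 1.20, 1.07 and 1.02. SRSF3, the smallest SR protein and an adaptor of mRNA export, had 1.69, 1.80 and 1.83, and SRSF7, its closest relative, had 0.857, 0.773 and 0.824. Within a replicate SRSF3 was 2.17 ± 0.179-fold (SD, n = 3) above SRSF7, and SRSF6 was 2.86 ± 0.224-fold above SRSF4. SRSF1, the founding SR protein (ASF/SF2), had 0.803, 0.736 and 0.748 and its paralogue SRSF9 had 0.811, 0.983 and 0.882. These ranges came within 0.01 of each other, and the mean ratio of 1.17 ± 0.163 (SD, n = 3) was little above 1.

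SRSF2 (SC35), a splicing factor of nuclear speckles, was the only SRSF gene below the median, with 0.252, 0.254 and 0.227, a difference of −0.63 ± 0.06 (SE, limma adjusted p 0.000216). SRSF8, an intronless relative of SRSF2, had 1.02, 0.928 and 0.916, a ratio of 3.91 ± 0.215 (SD, n = 3) to SRSF2. The remaining SRSF genes all passed the stricter rule. SRSF10, which represses splicing when dephosphorylated, had 1.13, 1.05 and 1.02, SRSF11 had 1.30, 0.904 and 1.04, and SRSF12, a relative of SRSF10 with few reads, had 1.25, 1.58 and 1.24. SRSF11 and SRSF12 were among the more variable members.

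TRA2A and TRA2B, the human relatives of the fly Transformer-2 splicing activator, differed by 2.21 ± 0.190-fold (SD, n = 3). TRA2A had 1.60, 1.71 and 1.65, and TRA2B had 0.801, 0.729 and 0.718. SRRM1 and SRRM2, coactivators of splicing with very long RS-rich tracts and no RNA recognition motif, were among the more scattered members. SRRM1, whose replicates spread the most of all members on the log2 scale, had 4.19, 2.50 and 3.32, and SRRM2 had 2.38, 1.85 and 1.75, so that their ranges did not overlap, although both were highest in replicate 1. Over the whole order of 36 genes, 15 of the 35 neighbouring pairs had replicate ranges that did not overlap, and 20 overlapped.

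Other proteins of the pathway, taken from lists drawn up with earlier results of these data known, did not all stand as high. Their counts are read against the 44.7% above and 44.6% below among all genes. Of 14 measured hnRNP proteins with other symbols, 8 were above the median, 3 below and 3 not called, with a median of 0.708. The poly(C)-binding protein PCBP1 was the highest with 6.54, 5.78 and 7.15. PTBP3 with 0.186, 0.219 and 0.235 and DAZAP1 with 0.187, 0.214 and 0.206 were the lowest. The kinases that phosphorylate RS domains and the importer TNPO3 lay lower: of 8 measured, 1 was above the median, 5 below and 2 not called, with a median of 0.192. The spliceosomal kinase PRPF4B had 1.38, 0.908 and 0.9998, and SRPK1 had 0.362, 0.409 and 0.412 and was not called. CLK3 had 0.0887, 0.0684 and 0.113, and DYRK1A had 0.0320, 0.0329 and 0.0380, the lowest of the list. Among 18 other measured regulators of alternative splicing, 8 were above and 10 below, with a median of 0.287 beside 0.385 for all genes. By the stricter rule 3 were above and 5 below, beside 23.3% and 18.2% of all genes. KHDRBS1 (SAM68) had 3.13, 3.11 and 3.23 and PNN had 2.54, 1.89 and 2.17, while RBM10 had 0.105, 0.1001 and 0.0975 and MBNL1 had 0.104, 0.0863 and 0.111.

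GENCODE annotates at least 1 nonsense-mediated decay transcript for 29 of the 36 members (80.6%), beside 48.9% of the 7603 genes of the table that matched by symbol. Members with such a transcript had a median translational efficiency of 1.10 and the 7 without had 2.57, beside 0.312 and 0.469 over all matched genes. The part of these transcripts in the values was not tested.

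The occupancy of the CDS gives a second view of the same mRNAs. The mean occupancy per codon had a median of 0.167 over the 31 members, beside 0.0450 over all 9570 transcripts, and 30 of the 31 members lay above that median. SRSF2 was the exception at 0.0425. The highest were HNRNPA1L2 with 20.5, HNRNPD with 1.18 and HNRNPA2B1 with 0.705, and the lowest after SRSF2 were HNRNPF with 0.0503 and HNRNPLL with 0.0558. HNRNPH1, for which no translational efficiency was present, had 0.0869, and HNRNPR, a relative of SYNCRIP, had 0.199, at percentiles 78.7 and 95.1 of all transcripts.

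Over the 6912 genes present in both tables the measures had a Spearman coefficient of 0.69, and over the 29 members 0.61, given as a description because both use the same RPF libraries and mRNA abundance in their denominators. HNRNPL departed most, at the 99.96th percentile of these genes in translational efficiency and at the 58.1th in occupancy. Its ratio of translational efficiency to occupancy was 2175, at the 99.96th percentile of these genes, where the median gene had 7.72. The CDS listed for HNRNPL in the occupancy table holds 457 codons, on the minus strand of chromosome 19 between 39327275 and 39342978, and 86.7% of its codons carried reads. In the other direction, the percentile in translational efficiency minus that in occupancy was −32.9 for HNRNPU, −32.1 for HNRNPDL and −31.4 for HNRNPC. Differences of this size were common: 15.05% to 16.9% of all genes had one as large as these 3. A difference in percentile as large as that of HNRNPL was seen in 7.28%, although its ratio was far rarer. The median size of the difference was 5.70 over members and 14.2 over all genes. For HNRNPA1L2, HNRNPA2B1, HNRNPD, HNRNPF and HNRNPH2 the difference was under 1 point.

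**Figure D2:**
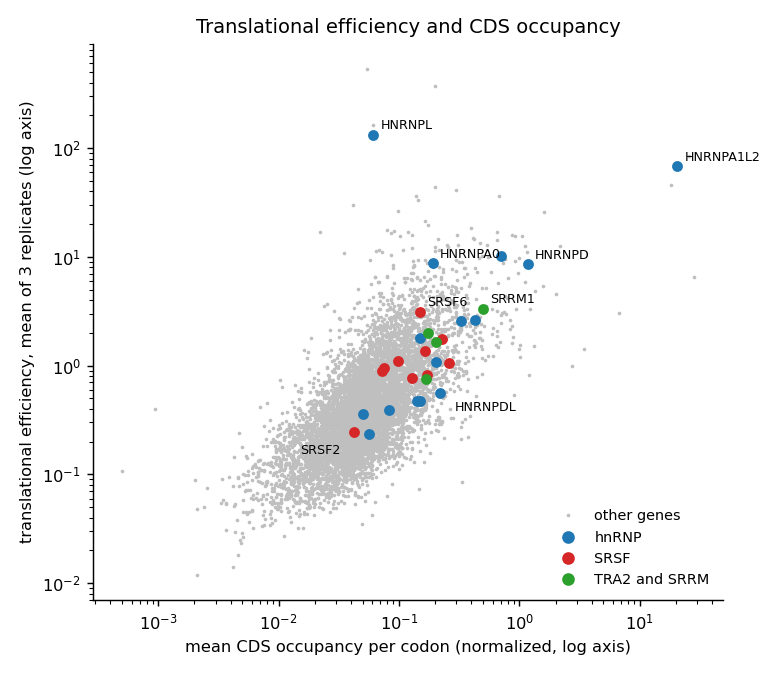
Mean CDS occupancy per codon (horizontal log axis) and mean translational efficiency of 3 replicates (vertical log axis) for the genes in both tables, with the 29 members as large coloured points. HNRNPL lies far above the cloud at an occupancy of 0.0610, and HNRNPA1L2 lies at the upper right with 20.5.

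Along the CDS the members differed in where the ribosomes lay. With each CDS divided into 3 equal parts, the ratio of occupancy in the last part to that in the first had a median of 0.798 over the members, beside 0.960 over all transcripts, and 12 of 31 members lay above the latter. HNRNPU had the highest ratio, 4.47 (0.197 against 0.0440), followed by HNRNPDL with 3.45 and HNRNPUL2 with 2.84. The lowest were SRSF12 with 0.318, HNRNPA2B1 with 0.364 and HNRNPH3 with 0.394. The highest single codon of SRSF12 held 12.5% of its CDS occupancy, the most of the members, ahead of SRSF8 with 11.0% and SRSF2 with 9.92%, and without that codon the ratio of SRSF12 was 0.390. SRRM2 with 1.63%, HNRNPUL2 with 2.26% and HNRNPU with 2.71% had the smallest shares in a single codon, and they are among the longest CDSs here.

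HNRNPDL showed the sharpest step. The annotated CDS of 421 codons begins with an AUG at which occupancy was 0, and the 119 codons before its second AUG held 0.172% of the CDS occupancy although they are 28.3% of its codons. At codon 120, the AUG printed above, occupancy rose to 10.5 times the mean of the CDS, with an estimated 1914 reads at this codon and 130 in all codons before it. The mean occupancy was 0.00134 before codon 120 and 0.307 from it onward. GENCODE holds 5 transcripts of the gene with a CDS of 302 codons that starts at this AUG. Other transcripts at least as long were compared where they had reads on at least 80% of the codons from 120 onward, a filter that leaves the first 119 free and that HNRNPDL passes with 95.7%. Among these 511 transcripts the first 119 codons had a median of 0.897 of the CDS mean, beside 0.00607 in HNRNPDL, and 1 transcript was lower. This comparison was made after the profile had been seen.

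The stretch before codon 120 of HNRNPDL has a GC content of 72.8%, and the CDS from there on 41.5%. In some other members too, a GC-rich beginning went with low occupancy. In HNRNPD, HNRNPAB and HNRNPUL2 the first 20% of the CDS has a GC content of 76.5%, 77.2% and 74.7%, and its occupancy was 0.120, 0.172 and 0.221 of the CDS mean. The 4 members with at least 70% GC in this stretch, HNRNPDL included, ranged from 0.000768 to 0.221, and the 23 other members with a matched CDS ranged from 0.306 (HNRNPU) to 1.93 (SRRM1). Members just below 70% GC differed: SRSF9 with 67.4% had 1.57, HNRNPU with 66.3% had 0.306 and SRSF2 with 65.9% had 0.521. A lower start at 70% GC or more was also seen outside the family. Among other transcripts with reads on at least 80% of the codons after this stretch, the median was 0.165 in the 80 with at least 70% GC there and 0.825 in the 1484 below that, so the low start of HNRNPD, HNRNPAB and HNRNPUL2 is not particular to these genes. In 1 of those 80 the value was lower than in HNRNPDL, and their lower quartile was 0.0749. The members were not filtered on coverage. Whether GC content itself plays a part was not tested.

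In the 5′UTR, the authors' profile keeps only reads in the frame of the CDS. Occupancy in its last 17 codons had a median of 0.00384 over the 30 members with a 5′UTR of at least 34 codons, beside 0.00195 over 6907 transcripts, and 23 of the 30 lay above the latter. The highest were HNRNPA1L2 with 0.529, HNRNPR with 0.336 and HNRNPA2B1 with 0.215, then HNRNPD with 0.105 and HNRNPC with 0.0837. HNRNPDL and HNRNPLL were listed at 0 there, and SRSF9 had 0.000324. The order of the highest changed when the 5 codons next to the AUG were left out. HNRNPR then had 0.378, HNRNPA2B1 0.191, HNRNPA1L2 0.161, HNRNPC 0.111 and HNRNPD 0.0216. These values are not relative to the CDS, whose occupancy was also mostly high in the members. As a share of all in-frame occupancy of the mRNA, the 5′UTR had a median of 0.567% over members and 0.365% over all transcripts. Of the 31 members, 17 lay above the latter, and HNRNPA1L2 had 0.344%. The share was largest in HNRNPR with 9.24%, followed by HNRNPA0 with 8.59% and HNRNPF with 4.66%. SRSF8 had 3.82%, the most of the SRSF genes.

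The signal in the 5′UTR of HNRNPR can be set beside a longer transcript of the gene, with the limit that no GENCODE CDS has the length of the listed one, 533 codons, and its place was taken from that length alone. Counted back from the end of the 634-codon CDS of GENCODE, it begins at codon 102, which is the AUG printed above. With this placing, the 48 codons before it lie in exons shared with that longer CDS and in the same frame, reaching back to exon 3 (chromosome 1, 23664983 to 23665101). Their mean occupancy was 0.224, 1.13 times that of the listed CDS, while the 48 codons further upstream had 0.00114. These shared codons held 99.5% of the occupancy of the 5′UTR. At the listed AUG itself the occupancy was 0.0359 of the CDS mean, with no peak.

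HNRNPA0 had a different kind of signal, a narrow peak 24 to 26 codons before its AUG. The 3 codons stood at 11.8, 5.64 and 7.77 times the CDS mean for distances of 24, 25 and 26 codons and together held most of the 5′UTR occupancy, with 41.0% at distance 24. The codon at distance 24 is a stop codon in the frame of the CDS, as is the codon at distance 27, and the 5′UTR of the matched transcript, 297 nt long, has no AUG. The stretch around it lies in exon 1, within the 5′UTR, at chr5:137089813-137089839 on the minus strand and is printed with the stop codon in capitals.
HNRNPA0 24 codons before the AUG: gtgtagaggcctTAAccaacgataacg

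In HNRNPC the highest 5′UTR codons stood 9 and 12 codons before the AUG, at 2.88 and 2.02 times the CDS mean. In its matched transcript in-frame stop codons lie 8 and 17 codons before the AUG, and the codon at distance 8 had 1.27 times. The 5′UTR of that transcript has 190 nt, while the profile lists 78 codons. HNRNPA2B1 had its signal spread out, with its highest codons 22, 13 and 4 codons before the AUG. In HNRNPD the highest codons stood 3 and 1 codons before the AUG, with 21.7% and 14.9% of its 5′UTR occupancy. Its mean over the 17 codons before the AUG fell from 0.105 to 0.0216 when the nearest 5 were left out. No 5′UTR codon of HNRNPA2B1 and HNRNPD was above 1.32 and 0.687 times the CDS mean. Neither matched transcript has an in-frame stop in the last 30 codons of its 5′UTR. For HNRNPA2B1 that 5′UTR has 169 nt, while the profile lists 68 codons. The 3′UTR carried little. Its median share was 0.0234% over members and 0.0165% over all transcripts, and the highest shares were 0.708% in SRSF8 (an estimated 19 reads), 0.605% in SRSF12 (11 reads) and 0.196% in SRSF2 (35 reads). HNRNPLL was listed at 0 in the 3′UTR.

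**Figure D3:**
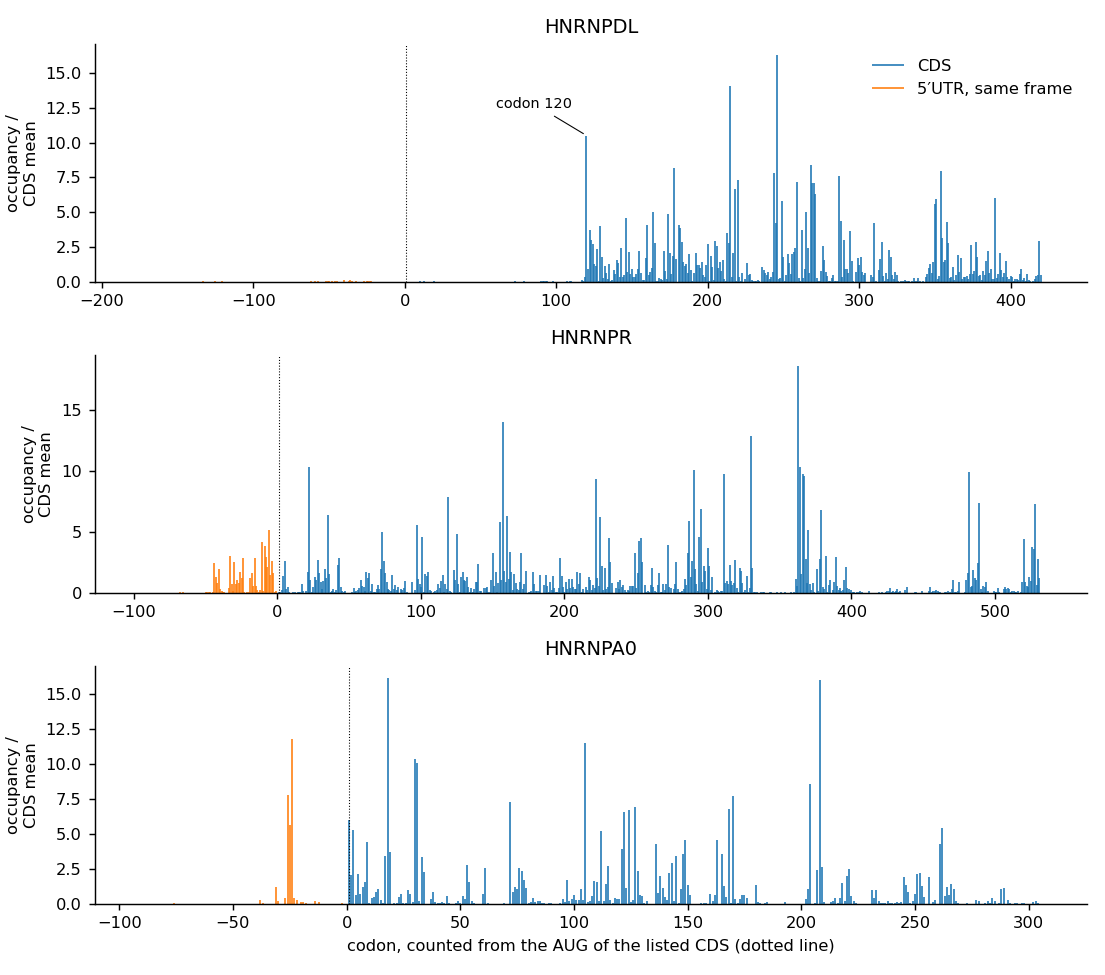
Occupancy per codon divided by the CDS mean (vertical axis) for HNRNPDL, HNRNPR and HNRNPA0, against the codon number counted from the AUG of the listed CDS. Blue lines are CDS codons and orange lines 5′UTR codons in the same frame. HNRNPDL starts at codon 120, HNRNPR continues upstream of its listed AUG for about the 48 codons that its placing by length shares with the longer CDS, and HNRNPA0 has a peak 24 to 26 codons before the AUG.

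Stretches of low-complexity protein were set against the rest of the same mRNA. Codons inside windows of 20 residues with at least 12 arginines or serines were compared with all other codons of the same mRNA. In the 12 members with at least 20 such codons the ratio of inside to outside had a median of 0.745, and 9 of the 12 had less inside than outside, beside 77.7% of other transcripts with RS-rich codons, so that this share is that of RS-rich mRNAs in general. The highest ratios were 1.48 in SRSF2, 1.15 in SRSF6 and 1.06 in SRRM2, whose RS-rich windows cover 1023 codons. The lowest were 0.305 in SRSF12, 0.397 in SRRM1 and 0.433 in SRSF9. SRSF1 had 0.979, TRA2A 0.823, SRSF7 0.787, TRA2B 0.703, SRSF3 0.603 and SRSF4 0.521, so paralogues differed, SRSF1 from SRSF9 and SRSF6 from SRSF4. In 381 other transcripts with RS-rich codons the median was 0.470, and 9 of the 12 members lay above it. When only the 30 other transcripts with reads on at least 80% of codons are taken, their median was 0.971. Of the 12 members, 4 lay above it, so the place of the members among other RS-rich mRNAs depends on which are taken. The members were not filtered in this way. SRRM2, among these 4, had reads on 75.9% of its codons, SRRM1 on 78.1% and SRSF12 on 64.1%.

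Glycine-rich codons, in windows with at least 8 glycines of 20 residues, were low in all 14 members that have 20 or more of them. The ratio of inside to outside ran from 0.232 in HNRNPD and 0.252 in HNRNPU to 0.774 in HNRNPDL and 0.883 in TRA2A, with a median of 0.450. In HNRNPDL the mean was 0.176 inside and 0.227 outside, beside 0.307 over all codons from 120 onward, as those before 120 are nearly empty. In HNRNPA2B1, where the windows cover 43.4% of the codons, it was 0.377, and in HNRNPA0 it was 0.457. A low ratio was the rule elsewhere too. Of 685 other transcripts 94.0% were below 1, with a median of 0.158, and with reads on at least 80% of codons the median of 70 was 0.227. All 14 members lay above both of these medians. The members were not filtered on coverage, and HNRNPDL had reads on 73.6% of its codons and HNRNPA0 on 74.8%.

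**Figure D4:**
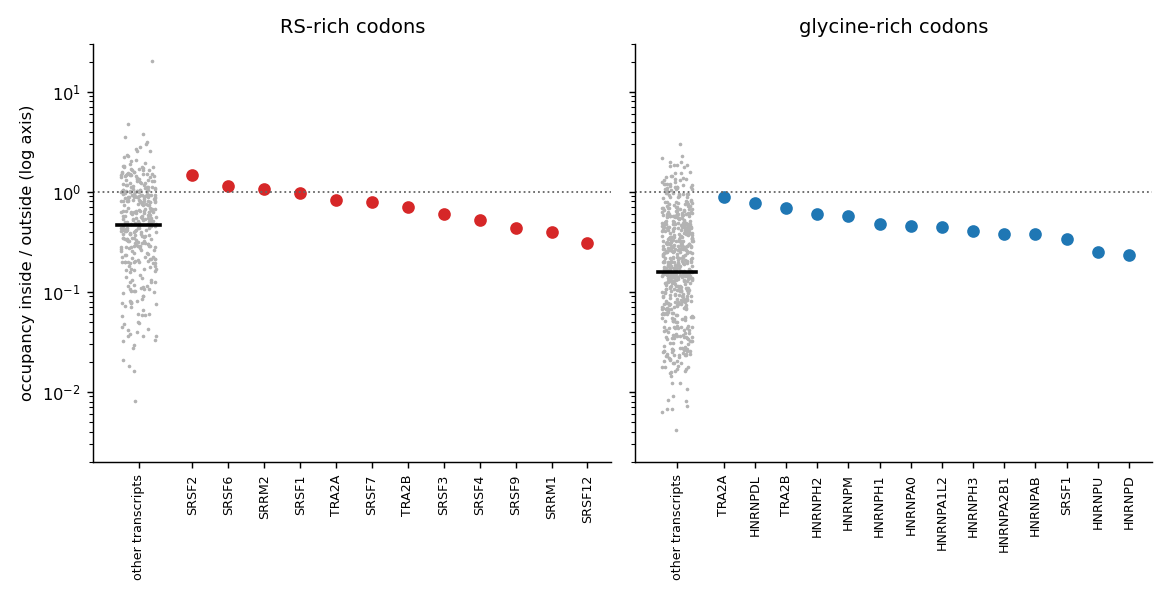
Ratio of mean occupancy inside to outside RS-rich codons (left, 12 members) and glycine-rich codons (right, 14 members), on a log axis. Small grey points are other transcripts (24 and 82 at a ratio of 0 are not drawn), the black bar is their median over all, and the dotted line marks a ratio of 1. RS-rich ratios run from 0.305 to 1.48, and the glycine-rich ratios are all below 1.

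Related members were then compared codon by codon, in 17 pairs of paralogues whose proteins were aligned. Spearman coefficients between aligned codons had a median of 0.32 and ran from 0.09 to 0.68. They are a description across codons of combined libraries, and codons of an mRNA are not independent. In each of the 17 pairs the coefficient was higher than with either profile displaced by 10 codons, where it ran from −0.14 to 0.39. HNRNPH1 and HNRNPH2, which encode proteins identical at 96.2% of 449 aligned residues while 65.0% of their codons are the same, had the highest coefficient, 0.68. Displaced, they had 0.09 and 0.16. Over the 299 codons whose surrounding 27 bases differ at 3 or more positions it was 0.58, and 3.02% of the 30-mers of HNRNPH1 occur in HNRNPH2.

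HNRNPH1 and HNRNPF had 0.46 and HNRNPH2 and HNRNPF had 0.43. Codon 303, printed above, was among the 10 highest aligned codons in all the pairs of HNRNPH1, HNRNPH2 and HNRNPF, at 8.09, 10.98 and 12.7 times the CDS mean. The windows around it differ at 2 of 27 bases between HNRNPH1 and HNRNPH2 and at 6 between HNRNPH1 and HNRNPF, where the codon itself is AAT and AAC. At codon 266, the highest of HNRNPH2 with 33.6 times the mean and also among the highest of HNRNPH1 with 13.5, the windows are identical, so reads there cannot be assigned to either gene. Shared peaks of this pair at codons 79 (7.19 in HNRNPH1, 17.3 in HNRNPH2), 257 and 303 lie in windows that differ at 2 of 27 bases. Whether reads with so few differences were kept apart was not tested. Of the 10 highest codons of HNRNPH1 and HNRNPH2, 4 were shared, and HNRNPH1 had high codons without a counterpart, such as codon 186 with 13.3 times the mean beside 0.673 in HNRNPH2 and codon 103 with 8.14 beside 0.0166. In the D group the coefficients were 0.44 for HNRNPD and HNRNPAB, 0.49 for HNRNPD and HNRNPDL and 0.41 for HNRNPAB and HNRNPDL, with 0.21 to 0.39 when displaced. HNRNPD and HNRNPDL, with 0.39 and 0.33 when displaced, shared none of their 10 highest codons. HNRNPD and HNRNPAB shared 1, and HNRNPAB and HNRNPDL shared 2. The highest codon of HNRNPD, GAA at 232 with 22.3 times the mean, stands at the same place as codon 204 of HNRNPAB with 12.6 times, in windows that differ at 3 of 27 bases.

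Among SR proteins SRSF1 and SRSF9 had 0.37, beside −0.06 and 0.06 when displaced, and share no 30-mer. The highest codon of each lies at the same place, codon 32 of SRSF1 with 17.6 times the mean and codon 30 of SRSF9 with 13.3 times, although the codon and its residue differ and the windows differ at 7 of 27 bases. The window of SRSF1 also occurs in a transcript of another gene, and that of SRSF9 does not. Codons 36 and 45 of SRSF1, with 6.18 and 5.18 times the mean, also met peaks of SRSF9. TRA2A and TRA2B had 0.27 and shared 2 of their 10 highest codons, HNRNPU and HNRNPUL2 had 0.32 and shared 1. SRSF4 and SRSF6 had 0.21 and SRSF3 and SRSF7 had 0.09, the lowest of the pairs, and neither of these pairs shared any of the 10 highest codons. Over all pairs 27 codons were shared among the 10 highest, where a codon shared in several pairs is counted in each. At 21 of the 27 the residue was the same in both proteins. Identity over all aligned residues of a pair already ran from 50.4% to 96.2%. Whether shared peaks favour identical residues was not tested. The windows at the shared codons differed at 0 to 13 of 27 bases, and where they are identical reads cannot be assigned to either gene.

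**Figure D5:**
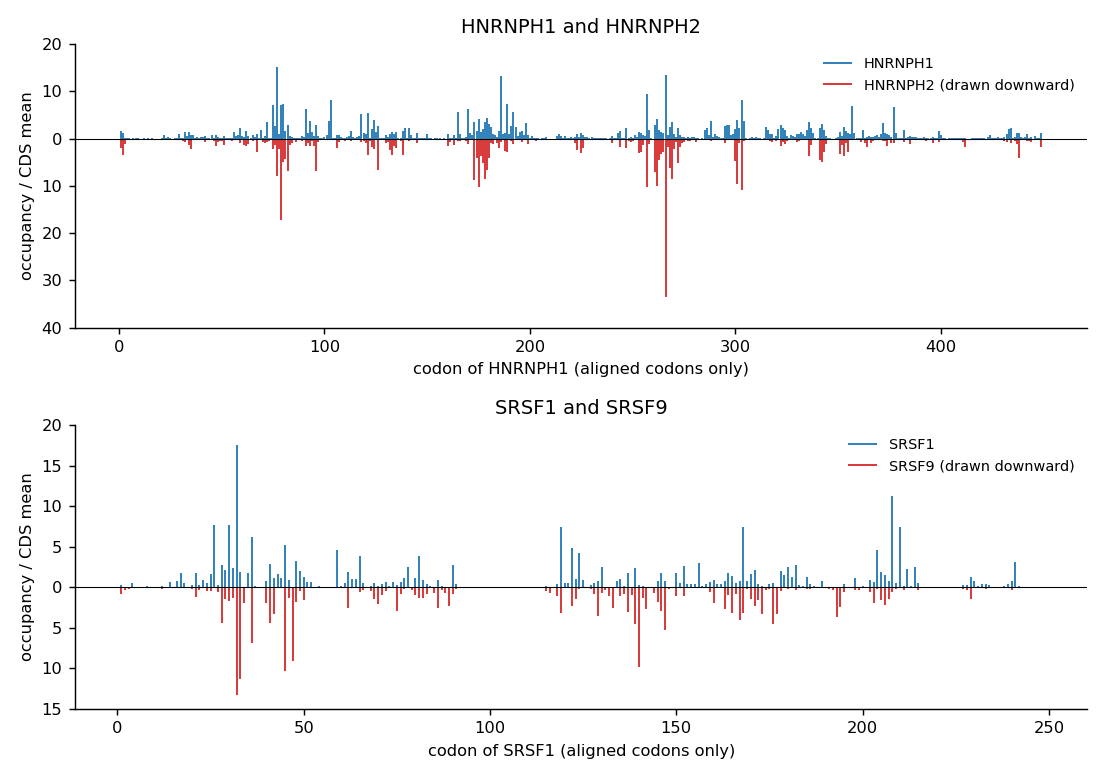
Occupancy per codon divided by the CDS mean along the aligned codons of HNRNPH1 (up) and HNRNPH2 (down), and of SRSF1 (up) and SRSF9 (down), against the codon number of the gene drawn upward. HNRNPH1 and HNRNPH2 share 4 of their 10 highest codons, among them 303 and 266. At 266 reads cannot be told apart, and at 303 the windows differ at 2 of 27 bases. Codon 186 is high in HNRNPH1 alone of the 2, and the highest peaks of SRSF1 and SRSF9 stand together at codon 32 of SRSF1.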

How the data were processed

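Ribosome profiling was analysed in HEK293 cells from 3 RPF and 3 total RNA libraries. According to the methods, adapters were removed with Cutadapt, PCR duplicates with cd-hit-dup, and RPFs of 28 to 30 nt were aligned with bowtie to the hg19 transcriptome and placed with an offset of 13 nt. The submitters' processing notes list cutadapt 1.16, Bowtie 1.1.2, TopHat2 2.1.1 and HTSeq 0.9.1. The translational efficiency deposited by the authors is the RPF to total RNA ratio of each replicate, whose formula the sources used here do not state. The occupancy they deposited is a signal per codon, in frame, replicates combined, divided by TPM. CDS lists broken over lines in 31 transcripts, SRRM2 included, were rejoined.

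The members and lists were chosen with earlier results of these data known. For the test, log2(value + 0.01) was fitted with limma 3.58.1 (R 4.3.3) after subtracting the median over genes and replicates, with p-values adjusted over 8121 genes at an FDR of 0.05, checked on data simulated from the replicate spread. No filter was applied. RPF and total RNA of a number come from the same lysate, and the ratio is taken within the pair. Reads were recovered from low occupancy values (relative tolerance 1e-08, values up to 60 times the smallest), and higher values were divided by what a read was worth on average. CDSs were matched to GENCODE 44 (GRCh37) by symbol and length, for 27 of 31 members (not HNRNPR, HNRNPLL, SRSF8 and SRSF10). Proteins were aligned with Biopython 1.88 (BLOSUM62, gap opening −11, extension −1). The named genes are all members, with values per replicate for the 5 highest, the 5 lowest and the families, the 3 highest and 3 lowest for each occupancy measure, and up to 4 of each other list. A gene that this rule names in the list of other hnRNP proteins is not reported here. The pairs of paralogues, the glycine-rich codons, the GC content and the single-mRNA profiles were examined after their values were seen.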

Additional observations from a re-analysis of the deposited data

How the results depend on the processing

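In translational efficiency, each of the 36 members kept its direction and its side of the threshold under all 7 alternatives run (252 comparisons). The counts of members above and below the median were 31 and 3 under each of them, with a replicate block (values centered within each replicate) as without, and the count over 1 log2 unit above was 22 to 25, the lowest with a pseudocount of 0.1, and 25 with the replicate block. The filter at 0.01 kept all 8121 genes, so it changed nothing. The median of the members, 1.33, was 1.08 over the 18 members with under 5% shared 30-mers, of which 14 were above the median of all values and 3 below, and 1.27 to 1.34 when a replicate was left out. The median CDS occupancy of 0.167 became 0.0417 with the median over codons (0.00717 over all transcripts, with 31 of 31 members above it), 0.174 without the 15 codons at each end and 0.158 without the highest codon. The 3′ to 5′ ratio of occupancy, last part of the CDS over first, 0.798, became 0.803 and 0.866 under those last settings. The RS-rich ratio of 0.745 became 0.878 with at least 14 arginines or serines (11 members, without SRSF9, whose main median is 0.787), 0.711 without the ends and 0.803 without the highest codon. The last 17 codons of the 5′UTR went from 0.00384 to 0.00415 without the 5 codons next to the AUG (0.000847 over all transcripts, with 26 of 30 members above it). The comparison of RS-rich members with other transcripts covered on at least 80% of codons, 4 of 12 above their median in place of 9, was added after seeing the data. In it only the other transcripts were filtered on coverage. Occupancy has no replicate error, and estimated read numbers cover counting only.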
